A study of Mus musculus with 12 samples.

Results

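Insulin and the insulin-like growth factors (IGFs) signal through related receptor tyrosine kinases, and 10 genes of this system were followed in the eye of fasted and sodium iodate-treated mice. They were the ligands Igf1 and Igf2, the receptors Igf1r and Insr, the receptor adaptor Irs2, and the binding proteins Igfbp2, Igfbp3, Igfbp4, Igfbp5 and Igfbp7. Each was taken by its gene symbol from the deposited count table, which lists 21930 genes, and each of the 10 symbols occurred once. All mice were wild-type male C57BL/6J animals that entered the diets at 8 weeks of age. They were fed ad libitum (AL) or fasted on alternate days (IF, 24 h without food followed by 24 h of feeding) for 12 weeks, and the diet went on after the injection. Mice then received 1 intraperitoneal injection of either PBS or NaIO3 at 25 mg/kg, an oxidant given systemically to injure the retinal pigment epithelium (RPE), and tissue was taken 7 days later. This gave 4 groups of 3 libraries, namely AL + PBS, IF + PBS, AL + NaIO3 and IF + NaIO3. The labels call the tissue the RPE/choroid/sclera complex, whereas the methods describe eye cups lysed for RNA. Whether tissue was taken on a fasting or a feeding day was not given in the sources used here.

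In this system IGF1 and IGF2 bind the IGF1 receptor, insulin binds the insulin receptor, and both receptors phosphorylate insulin receptor substrates such as IRS2 to engage PI3 kinase and AKT. Secreted IGF-binding proteins hold most IGF outside cells and so set how much reaches the receptors, while IGFBP7 binds IGFs only weakly. Fasting is known to lower circulating IGF1 through the liver and to raise Irs2 transcription in liver through FOXO factors. In the retina IGF1 and insulin act as survival and growth signals for neurons and vessels.

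The 12 libraries held between 26364665 and 43046950 counts assigned to genes, with a median of 31822705. RPE markers were present in every library, with 12 listed genes summing to between 1490 and 3182 CPM (counts scaled to library size and composition). Photoreceptor markers were more abundant, with 14 genes summing to between 21086 and 68165 CPM, so the libraries held neural retina as well as the labelled tissue. The third AL + NaIO3 library stood apart from the rest. It was the highest of all libraries for 4311 of 15970 genes (27%), it held the lowest photoreceptor sum (21086 CPM against 40100 to 68165 CPM in the other 11), and it held the highest sums of melanocyte and stromal fibroblast markers. Its weight in a difference is shown by the value without it. In bulk tissue fewer cells of a type and less RNA per cell cannot be told apart.

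The genes lie on 6 chromosomes in the GRCm38 coordinates of the count table. Igf1 is at chr10:87858265-87937042 on the plus strand, Igf2 at chr7:142650766-142666816 on the minus strand and Igf1r at chr7:67952827-68233668 on the plus strand. Insr is at chr8:3122061-3279617 and Irs2 at chr8:10984681-11008458, both on the minus strand. Igfbp2 at chr1:72824503-72852474 on the plus strand and Igfbp5 at chr1:72857932-72874884 on the minus strand are neighbours whose ends face each other. Igfbp3 is at chr11:7206086-7213923 on the minus strand, Igfbp4 at chr11:99041244-99054392 on the plus strand and Igfbp7 at chr5:77349240-77408041 on the minus strand. In the count table Igf2 overlaps Gm49394 on its own strand and Igfbp7 overlaps Polr2b on the opposite strand, and whether reads were counted by strand was not given in the sources used here. Counts of these 2 genes may therefore hold reads of their neighbours. The other 8 genes overlap no gene of the table.

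The 250 bases before the transcription start of Igfbp4, Igfbp5 and Igfbp7 are shown because these binding proteins peaked together in the third AL + NaIO3 library. The sequences are RefSeq promoters of GRCm38.p6, written 5′ to 3′ on the strand of the gene, at chr11:99040994-99041243 for Igfbp4, chr1:72874866-72875115 for Igfbp5 and chr5:77408046-77408295 for Igfbp7. Capitals mark a TATA box (TATAAA) in Igfbp4 and GC boxes (GGGCGG or its complement) in Igfbp7.
Igfbp4: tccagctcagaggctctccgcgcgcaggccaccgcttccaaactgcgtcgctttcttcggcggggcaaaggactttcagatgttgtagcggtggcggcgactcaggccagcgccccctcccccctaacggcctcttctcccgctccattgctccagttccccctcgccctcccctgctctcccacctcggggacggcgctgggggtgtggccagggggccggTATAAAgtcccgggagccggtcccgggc
Igfbp5: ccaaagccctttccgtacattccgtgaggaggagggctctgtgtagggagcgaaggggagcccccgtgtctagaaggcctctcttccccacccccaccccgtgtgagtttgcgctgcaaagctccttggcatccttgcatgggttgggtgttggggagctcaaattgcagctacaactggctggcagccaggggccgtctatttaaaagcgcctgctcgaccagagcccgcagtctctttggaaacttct
Igfbp7: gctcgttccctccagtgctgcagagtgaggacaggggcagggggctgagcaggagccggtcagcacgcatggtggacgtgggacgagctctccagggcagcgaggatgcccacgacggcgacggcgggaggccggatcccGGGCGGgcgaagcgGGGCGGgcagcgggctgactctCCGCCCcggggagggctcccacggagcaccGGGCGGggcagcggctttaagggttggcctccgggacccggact
Of these bases 69.2% were G or C in Igfbp4, 58.8% in Igfbp5 and 74% in Igfbp7. The TATA box of Igfbp4 began 28 bases before the start, and the GC boxes of Igfbp7 began 110, 96, 74 and 44 bases before it. Both strands were searched for TATAAA (the TATA box), GTAAACA (the core bound by FOXO factors), TGANTCA (AP-1), GGGCGG (the GC box), CCAAT (the CCAAT box) and TGACGTCA (the cAMP response element), and none of these letters occurred in the window of Igfbp5. Among 32851 promoters of the same length the shares with a match were 12.4% for the TATA box, 3.17% for the FOXO core, 6.75% for AP-1, 32.7% for the GC box, 33.8% for the CCAAT box and 1.55% for the cAMP response element. A promoter was found for 9 of the 10 genes, the other being Insr, and GTAAACA occurred in none of the 9. The promoter of Irs2 held CCAAT 137 and 101 bases before its start and GGGCGG 85 bases before it. The promoter of Igf1 held a match to TGANTCA, with the letters TGAATCA, 37 bases before its start and CCAAT 142 bases before it. Another match to TGANTCA, with the letters TGAGTCA, lay 39 bases before 1 of the 2 starts of Igfbp2. The pattern searched admits any letter in the middle, so the matches differ in that base.

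All 10 genes were detected in all 12 libraries, and levels between genes were compared in the FPKM deposited by the authors, which scale counts by gene length. Igfbp5 and Igfbp7 led with means of 26.3 and 26.3 FPKM, but their medians were 16.3 and 21.2 FPKM because 1 library was far above the rest. Igfbp2 followed at a mean of 21.6 FPKM, Igf1r at 21.3 FPKM and Igfbp4 at 16.9 FPKM. Igf2 averaged 12.1 FPKM, Insr 9.48 FPKM, Igf1 6.38 FPKM, Irs2 6.25 FPKM and Igfbp3 2.02 FPKM. Thus Igf2 was above Igf1 in its mean, and the receptor for the IGFs was above the insulin receptor. Neighbours in this order overlapped in their ranges over the 12 libraries, other than Irs2 (5.09 to 8.30 FPKM) and Igfbp3 (0.911 to 4.33 FPKM). Over the 11 libraries without the third of AL + NaIO3 the mean of Igf1r was 21.2 FPKM, that of Igfbp7 20.8 FPKM, that of Igfbp2 20.5 FPKM and that of Igfbp5 16.4 FPKM, so the lead of Igfbp5 and Igfbp7 rested on that library. At its mean over the 12 libraries Igf1r was above 85.5% of all genes of the table and Igfbp3 above 47.6%.

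**Figure D1:**
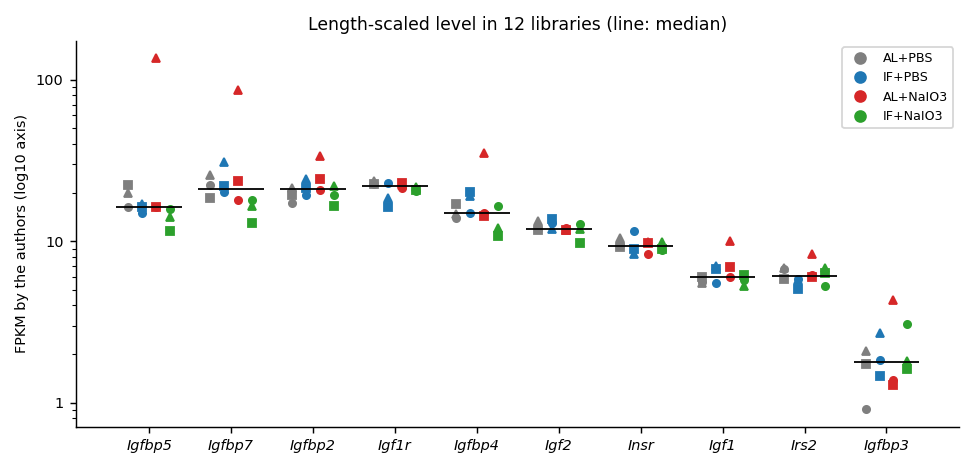
Level of each gene in FPKM (log10 axis) in the 12 libraries, ordered by the mean. Points are libraries, coloured by group, with the replicate given by shape, and the line is the median. The third AL + NaIO3 library (red triangle) reached 136 FPKM for Igfbp5 and 86.7 FPKM for Igfbp7, far above the other libraries.

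Library by library, the 2 ligands spanned narrow ranges. Igf1, the growth factor made in response to growth hormone and also locally in tissues, was at 44.3, 50.3 and 44.2 CPM in AL + PBS and at 43.6, 55.0 and 56.2 CPM in IF + PBS. After NaIO3 it was at 51.8, 51.6 and 69.4 CPM in AL mice and at 48.5, 54.9 and 44.1 CPM in IF mice. The third AL + NaIO3 library was the highest, and all 3 AL + NaIO3 libraries were above all 3 AL + PBS libraries. Igf2, an imprinted growth factor, was at 67.1, 64.4 and 69.0 CPM in AL + PBS and at 69.8, 70.2 and 60.8 CPM in IF + PBS. It was at 64.8, 57.8 and 51.3 CPM in AL + NaIO3 and at 67.6, 57.2 and 65.7 CPM in IF + NaIO3, and here the third AL + NaIO3 library was the lowest. The groups overlapped for Igf2 in each pair compared.

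The receptors varied most in IF + PBS. Igf1r, the receptor tyrosine kinase for IGF1 and IGF2, was at 287, 290.3 and 296 CPM in AL + PBS and at 287, 217 and 238 CPM in IF + PBS. With NaIO3 it was at 289.6, 275 and 248 CPM in AL mice and at 279, 289.6 and 285 CPM in IF mice. The first IF + PBS library was level with AL + PBS while the second and the third were the lowest of the 12. Insr, the insulin receptor, was at 104, 106 and 112 CPM in AL + PBS and at 124, 80.5 and 91.1 CPM in IF + PBS, where the first library was the highest of the 12 and the second and the third were the lowest. It was at 95.4, 101 and 92.5 CPM in AL + NaIO3 and at 102, 107 and 111 CPM in IF + NaIO3, so the AL + NaIO3 libraries were all below those of AL + PBS and of IF + NaIO3.

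Irs2, the adaptor that couples both receptors to PI3 kinase, was at 51.9, 45.3 and 51.9 CPM in AL + PBS and at 44.3, 39.2 and 43.5 CPM in IF + PBS. After NaIO3 it was at 50.6, 43.4 and 55.6 CPM in AL mice and at 42.0, 52.7 and 53.3 CPM in IF mice. The IF + PBS libraries were all below the AL + PBS libraries, and both NaIO3 groups overlapped with AL + PBS.

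The binding proteins were the most uneven group. Igfbp2, a carrier of both IGFs, was at 27.4, 31.1 and 33.8 CPM in AL + PBS, 29.9, 33.9 and 37.0 CPM in IF + PBS, 34.5, 35.8 and 46.7 CPM in AL + NaIO3, and 31.2, 28.0 and 35.1 CPM in IF + NaIO3. Igfbp3, the main carrier of IGFs in serum, was at 2.69, 5.195 and 6.16 CPM, 5.38, 4.33 and 7.81 CPM, 4.33, 3.55 and 10.96 CPM, and 9.41, 5.10 and 5.44 CPM in the same order of groups, and it was the scarcest of the 10 genes with between 84 and 408 counts a library. Both genes were highest in the third AL + NaIO3 library, and the groups of Igfbp3 overlapped throughout.

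Igfbp4, a binding protein that restrains IGF action until it is cleaved, was at 64.4, 80.0 and 67.6 CPM in AL + PBS and at 68.3, 93.1 and 86.1 CPM in IF + PBS. It was at 73.2, 61.8 and 139 CPM in AL + NaIO3 and at 79.2, 53.3 and 57.3 CPM in IF + NaIO3. Apart from the third AL + NaIO3 library, the values of all 4 groups overlapped. Igfbp5, a binding protein that also attaches to extracellular matrix, was at 119, 165 and 144 CPM in AL + PBS and at 108, 119 and 121 CPM in IF + PBS. With NaIO3 it was at 126, 111 and 862 CPM in AL mice and at 119, 89.9 and 104 CPM in IF mice, and the third AL + NaIO3 library was at 5.21 times the next highest. Igfbp7, a secreted protein known from vessels and matrix, was at 30.3, 25.6 and 34.7 CPM in AL + PBS and at 27.3, 30.0 and 40.8 CPM in IF + PBS. It was at 25.9, 30.2 and 103 CPM in AL + NaIO3 and at 25.3, 19.0 and 22.7 CPM in IF + NaIO3, and these last 3 libraries were below every library of the other 3 groups.

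**Figure D2:**
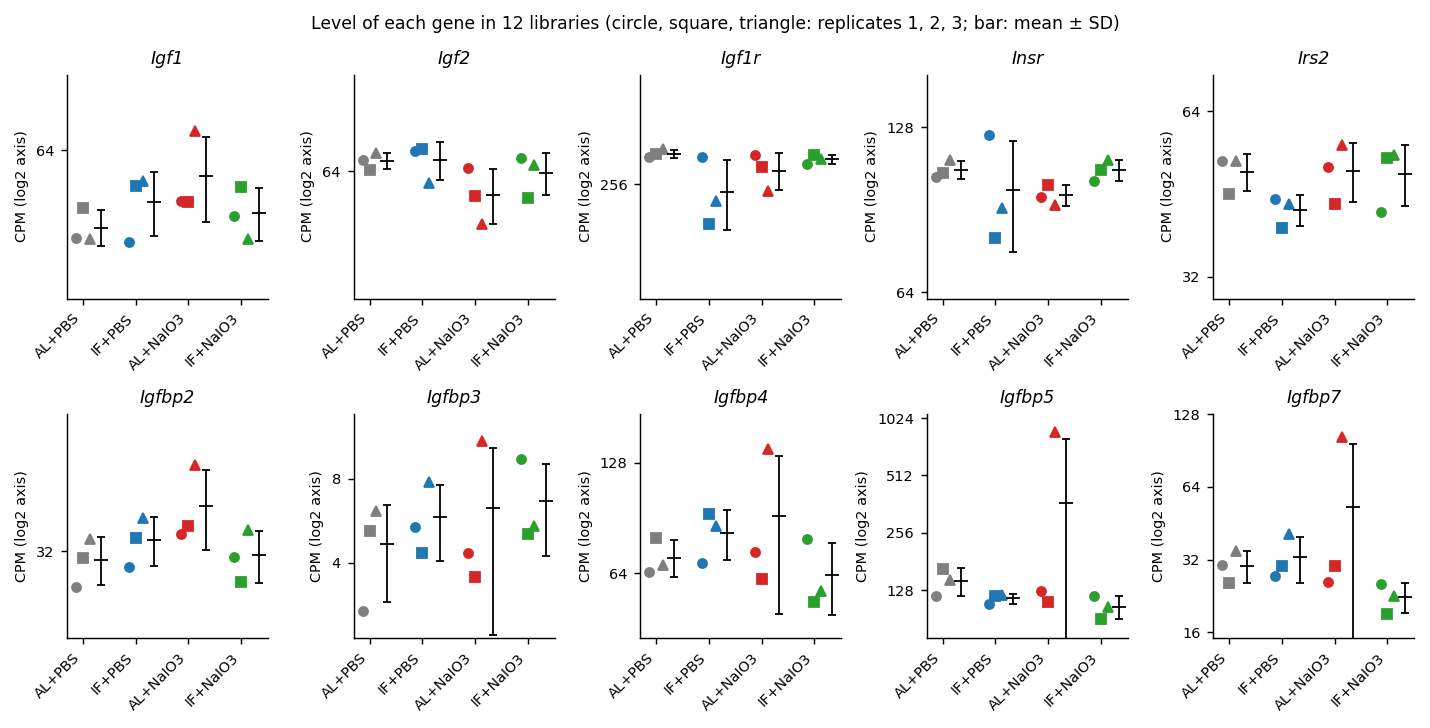
Level of each gene in CPM (log2 axis, a separate range for each gene) in the 12 libraries. Circle, square and triangle are replicates 1, 2 and 3 of a group, and the bar beside them is the mean ± SD of 3 libraries, cut off at the lower axis limit for Igfbp5 and Igfbp7 in AL + NaIO3. Igf1r and Insr dip in replicates 2 and 3 of IF + PBS, and Igfbp5, Igfbp7 and Igfbp4 peak in replicate 3 of AL + NaIO3.

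The first question was whether 12 weeks of fasting altered these genes without injury, which IF + PBS against AL + PBS answers. None of the 10 genes passed the test of edgeR's quasi-likelihood fit (adjusted p under 0.05 and a change of at least 1.5-fold), and over all genes 0% of 15361 passed. DESeq2 and limma likewise called none of the 10. At an unadjusted p under 0.05, edgeR gave 2 of the 10, beside 17.1% of all genes. The median log2 difference of the 10 was 0.06 and that of all genes 0.01, and 6 of the 10 were higher in IF. The signalling components Igf1r, Insr and Irs2 were all lower in IF on the mean, and Igf1, Igfbp2, Igfbp3, Igfbp4 and Igfbp7 were higher.

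Among single genes, Igfbp5 was at 143 ± 23.5 CPM (SD, n = 3) in AL + PBS and 116 ± 7.04 CPM (SD, n = 3) in IF + PBS. Its log2 difference was -0.30 (SE 0.12, edgeR adjusted p = 0.257), and the groups overlapped between 119 and 121 CPM. Irs2 was at 49.7 ± 3.81 CPM (SD, n = 3) in AL + PBS and 42.3 ± 2.72 CPM (SD, n = 3) in IF + PBS. Its log2 difference was -0.23 (SE 0.10, edgeR adjusted p = 0.278), and of the 10 genes it was the only one whose groups did not overlap, beside 21.9% of all genes. Igf1r had a log2 difference of -0.23 (SE 0.11, edgeR adjusted p = 0.304), with 291 ± 4.76 CPM (SD, n = 3) in AL + PBS and 248 ± 36.0 CPM (SD, n = 3) in IF + PBS. Igf1 differed by 0.16 (SE 0.12, edgeR adjusted p = 0.504) and Igfbp4 by 0.23 (SE 0.13, edgeR adjusted p = 0.396). Igf2 differed by 0.0046 (SE 0.09, edgeR adjusted p = 0.985), the smallest difference of the 10.

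The differences of the receptors and of several other genes moved with the first IF + PBS library. Without it Igf1r was lower in IF + PBS by a log2 difference of -0.35 (SE 0.08, edgeR adjusted p = 0.0212) and Insr by -0.32 (SE 0.09, edgeR adjusted p = 0.0431). The other genes had an adjusted p above 0.05, with 0.26 (SE 0.09, edgeR adjusted p = 0.0938) for Igf1, 0.34 (SE 0.10, edgeR adjusted p = 0.0614) for Igfbp4, 0.20 (SE 0.12) for Igfbp2, 0.23 (SE 0.16) for Igfbp7, 0.37 (SE 0.36) for Igfbp3, -0.26 (SE 0.10) for Irs2, -0.25 (SE 0.12) for Igfbp5 and -0.03 (SE 0.09) for Igf2. The receptors stayed under 1.5-fold, so neither counted as called, and 11.4% of all genes then had an adjusted p under 0.05. With all 3 libraries the Insr difference was -0.12 (SE 0.14, edgeR adjusted p = 0.700), beside -0.026 in limma on log2(FPKM + 1). Without the second IF + PBS library, whose Insr count was the lowest of the 12 but whose FPKM (8.95) was within the range of the others, it was 0.00781. The number of genes called over the table went from 0 to 472 (3.03%) when the first IF + PBS library was left out. That first library held the lowest sums of stromal fibroblast markers (144 CPM) and of skeletal muscle markers (19.9 CPM) among the 12 libraries.

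Marker sums also differed between IF + PBS and AL + PBS as groups, with no overlap for 8 of 14 marker lists. Stromal fibroblast markers summed to between 144 and 221 CPM in IF + PBS and to between 245 and 302 CPM in AL + PBS, and skeletal muscle markers to between 19.9 and 101 CPM and between 131 and 287 CPM. RPE markers were higher in IF + PBS, at 2716 to 3182 CPM beside 2389 to 2586 CPM, and photoreceptor markers lower, at 53369 to 58239 CPM beside 59436 to 62990 CPM. Schwann cell markers were higher, and erythrocyte markers were lower. Endothelial markers were lower by a narrow margin, at 293.4 to 302.4 CPM beside 303.0 to 309.7 CPM. Lens markers were scarce and lower, at 3.20 to 4.26 CPM beside 8.78 to 291 CPM, with a median of 10.2 CPM in AL + PBS. The part of these shifts in the values of Igfbp5, Irs2 and the receptors was not tested.

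**Figure D3:**
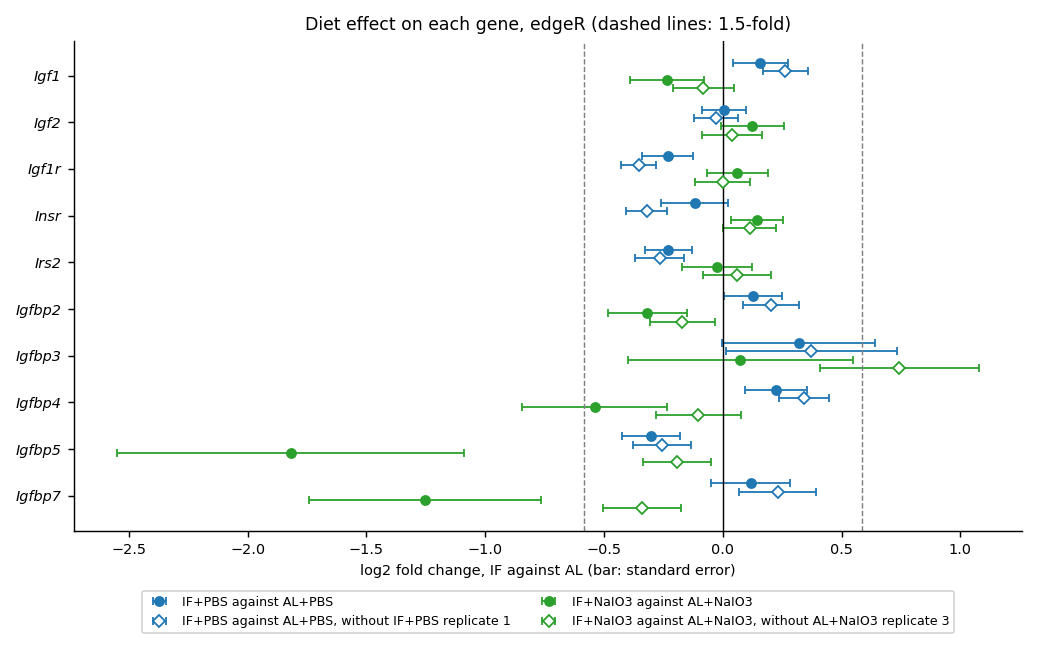
Log2 fold change of IF against AL for each gene from edgeR (x axis, with its standard error), under PBS (blue) and under NaIO3 (green), from all libraries (filled) and without the library named in the legend (open). Dashed lines mark 1.5-fold. Igfbp5 and Igfbp7 lie far to the left under NaIO3 at -1.82 and -1.25 and move to -0.19 and -0.34 without the third AL + NaIO3 library.

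In injured eyes, IF + NaIO3 was compared with AL + NaIO3. The binding proteins Igfbp5 and Igfbp7 had the largest differences of the 10, both lower in IF, and neither passed the test. None of the 10 genes was called by edgeR, DESeq2 or limma, and edgeR called 6 of 15648 genes (0.0383%). At an unadjusted p under 0.05 there were 2 of the 10, beside 11.7% of all genes. The median log2 difference of the 10 was -0.13 and that of all genes -0.01, and 4 of the 10 were higher in IF. Without the third AL + NaIO3 library the median of the 10 was -0.04, and that of all genes -0.001.

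Igfbp5 was at 104 ± 14.6 CPM (SD, n = 3) in IF + NaIO3 and 367 ± 429 CPM (SD, n = 3) in AL + NaIO3. The log2 difference was -1.82 (SE 0.73, edgeR adjusted p = 0.400), and without the third AL + NaIO3 library it was -0.19 (SE 0.14, edgeR adjusted p = 0.796). Igfbp7 was at 22.3 ± 3.17 CPM (SD, n = 3) and 52.9 ± 43.1 CPM (SD, n = 3) in the same groups. Its log2 difference was -1.25 (SE 0.49, edgeR adjusted p = 0.384) and -0.34 (SE 0.16, edgeR adjusted p = 0.595) without that library, although the groups did not overlap in either case. Igfbp4 had a log2 difference of -0.54 (SE 0.30, edgeR adjusted p = 0.527), which came to -0.10 (SE 0.18, edgeR adjusted p = 0.937) without it. Igfbp3 went the other way, from 0.07 (SE 0.47) to 0.74 (SE 0.33, edgeR adjusted p = 0.546). The sizes of these 4 differences thus moved with that library, and that of Igfbp3 also turned to -0.26 without the first IF + NaIO3 library. Marker sums separated these groups as well. Stromal fibroblast markers summed to 199 to 204 CPM in IF + NaIO3 and 211 to 1665 CPM in AL + NaIO3. Pericyte and smooth muscle markers summed to 77.4 to 97.3 CPM and 97.9 to 355 CPM. Macrophage and microglia, Müller glia and astrocyte, and endothelial sums were also lower in IF + NaIO3 without overlap. The part of these shifts in the Igfbp7 values was not tested.

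The ligands and receptors differed less. Insr was at 107 ± 4.65 CPM (SD, n = 3) in IF + NaIO3 and 96.2 ± 4.09 CPM (SD, n = 3) in AL + NaIO3, with no overlap between groups and a log2 difference of 0.14 (SE 0.11, edgeR adjusted p = 0.6251). Insr and Igfbp7 were the genes without overlap, 2 of 10, beside 18.9% of all genes. In limma on log2(FPKM + 1) the Insr difference was -0.0074. Igf1 differed by -0.24 (SE 0.16, edgeR adjusted p = 0.582), Igf2 by 0.12 (SE 0.13), Igf1r by 0.06 (SE 0.13) and Irs2 by -0.02 (SE 0.15). Without the third AL + NaIO3 library these came to -0.08 (SE 0.13), 0.04 (SE 0.13), -0.000213 (SE 0.12) and 0.06 (SE 0.14), so they too moved with it, while Insr was at 0.11 (SE 0.11). Igfbp2 differed by -0.32 (SE 0.17, edgeR adjusted p = 0.497), and by -0.17 (SE 0.14, edgeR adjusted p = 0.824) without it.

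Averaged over both injections, with 6 mice on each diet, none of the 10 genes was called by edgeR, DESeq2 or limma, and edgeR called 36 of 15970 genes (0.225%). Only Igfbp5 had an unadjusted p under 0.05, beside 16.1% of all genes. Its log2 difference of IF against AL was -1.05 (SE 0.40, edgeR adjusted p = 0.217) and came to -0.25 (SE 0.10, edgeR adjusted p = 0.275) without the third AL + NaIO3 library. DESeq2 set Igfbp5 aside as an outlier here and gave it no p. Igfbp7 differed by -0.56 (SE 0.28, edgeR adjusted p = 0.344), and by -0.11 (SE 0.13) without that library. The other 8 genes lay between -0.15 and 0.20, and between -0.11 and 0.53 without that library, with Igfbp3 the highest at 0.53 (SE 0.25, edgeR adjusted p = 0.372). Over the table the count of genes called was 198 without the first AL + NaIO3 library and 203 without the second. The values of the 6 IF mice overlapped those of the 6 AL mice for all 10 genes, while 1.11% of all genes showed no overlap.

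The difference between the diet effects under NaIO3 and under PBS was tested as an interaction. None of the 10 genes passed an adjusted p under 0.05 in edgeR, DESeq2 or limma, and edgeR called 5 of 15970 genes (0.0313%), or 366 genes without the first AL + NaIO3 library, again with none of the 10. Only Igfbp7 had an unadjusted p under 0.05, beside 12% of all genes. Its interaction was -1.35 on the log2 scale (SE 0.56, edgeR adjusted p = 0.384) and -0.45 (SE 0.25, edgeR adjusted p = 0.533) without the third AL + NaIO3 library. The Igfbp5 interaction was -1.50 (SE 0.80, edgeR adjusted p = 0.460) and turned to 0.12 (SE 0.20) without it. DESeq2 gave Igfbp5 no p for the interaction either. For Igf1r and Insr the interaction was 0.31 (SE 0.17) and 0.28 (SE 0.19), with edgeR adjusted p = 0.463 and 0.558. Without the first IF + PBS library these came to 0.42 (SE 0.14) and 0.47 (SE 0.13), with edgeR adjusted p = 0.204 and 0.150.

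The effect of NaIO3 itself was compared within each diet. These comparisons share their libraries with the diet comparisons above, so the values stand side by side and are not independent. In AL mice the median log2 difference of the 10 genes was 0.33 and that of all genes 0.01, with 7 of the 10 higher after NaIO3. None was called by edgeR, DESeq2 or limma and none had an unadjusted p under 0.05 in edgeR, beside 12 of 15612 genes called (0.0769%) and 10.2% of genes at an unadjusted p under 0.05. Without the third AL + NaIO3 library the median was -0.09 and 2 of the 10 were higher. Igfbp5 went from 1.37 (SE 0.73) to -0.27 (SE 0.15), Igfbp7 from 0.82 (SE 0.49) to -0.11 (SE 0.16), Igfbp4 from 0.38 (SE 0.29) to -0.07 (SE 0.13) and Igfbp3 from 0.43 (SE 0.50) to -0.25 (SE 0.37). Igf1 and Igfbp2 kept their direction, with 0.32 (SE 0.15, edgeR adjusted p = 0.509) and 0.16 (SE 0.11) for Igf1 and with 0.35 (SE 0.16, edgeR adjusted p = 0.509) and 0.19 (SE 0.13) for Igfbp2. Igf1, Insr and Igfbp2 had groups without overlap, 3 of 10, beside 18.1% of all genes.

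In IF mice none of the 10 genes was called by edgeR, DESeq2 or limma, and edgeR called 0% of 15305 genes. At an unadjusted p under 0.05 there were 2 of the 10, beside 15.2% of all genes. Igfbp7 was at 22.3 ± 3.17 CPM (SD, n = 3) in IF + NaIO3 and 32.7 ± 7.14 CPM (SD, n = 3) in IF + PBS, without overlap, as for 20.9% of all genes. Its log2 difference was -0.55 (SE 0.17, edgeR adjusted p = 0.224), with an adjusted p of 0.0532 in DESeq2 and 0.271 in limma. This is the smallest unadjusted edgeR p of the 10 genes in any of the 6 comparisons, and 3.61% of all genes had a smaller one. Igfbp4 differed by -0.38 (SE 0.16, edgeR adjusted p = 0.312). Irs2 and Igf1r were higher after NaIO3 by 0.22 (SE 0.12, edgeR adjusted p = 0.378) and 0.20 (SE 0.11, edgeR adjusted p = 0.405), with means of 49.3 and 284 CPM beside 49.7 and 291 CPM in AL + PBS. Without the first IF + PBS library the difference of Igf1r was 0.32 (SE 0.09, edgeR adjusted p = 0.0692), that of Insr went from 0.12 (SE 0.15) to 0.32 (SE 0.10, edgeR adjusted p = 0.0901) and that of Igf1 from -0.07 (SE 0.12) to -0.17 (SE 0.11), while Igfbp7 was at -0.66 (SE 0.17, edgeR adjusted p = 0.0565). Markers of 2 cell types separated these groups without overlap, with RPE sums of 1525 to 2399 CPM in IF + NaIO3 and 2716 to 3182 CPM in IF + PBS, and erythrocyte sums of 71.7 to 98.6 CPM and 41.6 to 57.2 CPM. Their part in the Igfbp7 values was not tested.

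In the third AL + NaIO3 library 7 of the 10 genes were at their highest of the 12 libraries, namely Igf1, Irs2 and all 5 binding proteins, beside 27% of all genes. Igfbp5 stood at 7.26 times the median of the other 11 libraries, Igfbp7 at 3.76 times, Igfbp3 at 2.11 times and Igfbp4 at 2.04 times. Its neighbour on the chromosome, Igfbp2, stood at 1.38 times, as did Igf1, and Irs2 at 1.23 times. Insr at 0.890, Igf1r at 0.866 and Igf2 at 0.781 times were below the median. In the same library the summed markers of melanocytes (7 genes) were at 9.61 times that median, those of stromal fibroblasts (12 genes) at 7.90 times, macrophages and microglia (12 genes) at 5.96 times and pericytes and smooth muscle (8 genes) at 4.08 times. Endothelial markers (10 genes) were at 2.13 times and Müller glia and astrocyte markers (10 genes) at 1.699 times, while RPE markers were at 0.818 times and photoreceptor markers at 0.358 times. This library had the highest value for 7 of 7 melanocyte, 10 of 12 stromal, 10 of 12 macrophage and microglia, 7 of 8 pericyte and 9 of 10 endothelial markers. It was also the highest for 8 of 10 Müller glia and astrocyte, 5 of 12 RPE and 0 of 14 photoreceptor markers. The lower RPE sum thus did not hold for every RPE marker. In no list was a marker at 0 in all libraries. The part of these cell types in the values of the binding proteins was not tested.

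**Figure D4:**
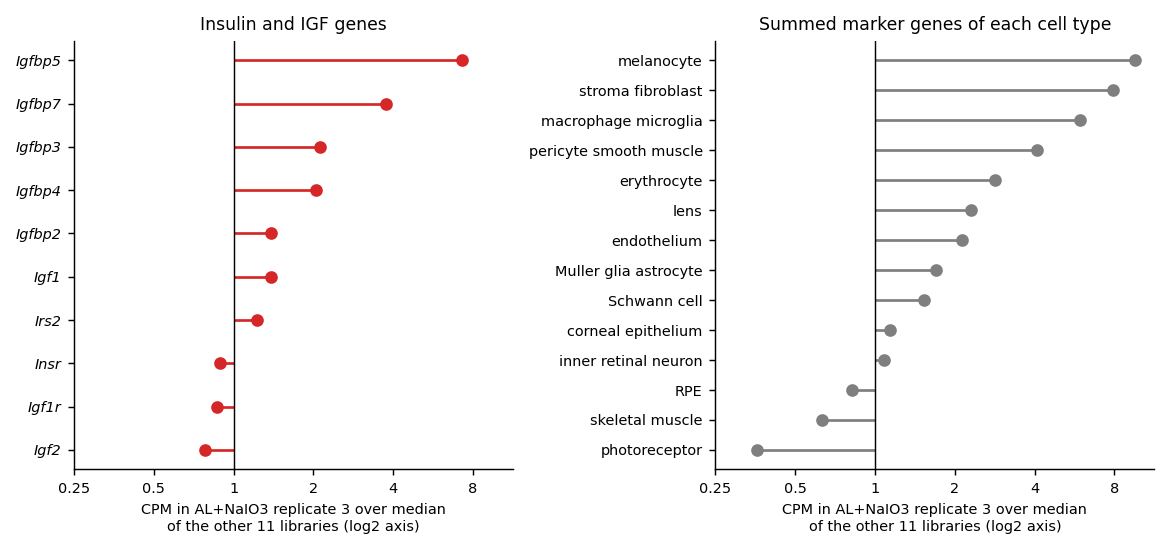
CPM in the third AL + NaIO3 library over the median of the other 11 libraries (log2 axis), for the 10 genes (left) and for the summed markers of 14 cell types (right). Igfbp5 at 7.26 lies between the macrophage markers at 5.96 and the stromal markers at 7.90, and Igf2 at 0.781 is the lowest of the 10 genes.

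Markers of 3 cell types also set AL + NaIO3 apart from the other 9 libraries as a group, without overlap. The sum of macrophage and microglia markers was 148, 208 and 424 CPM at the lowest, median and highest AL + NaIO3 library, beside 57.6 to 77.1 CPM elsewhere. Müller glia and astrocyte markers summed to between 6178 and 9228 CPM, beside 5055 to 5952 CPM elsewhere, and endothelial markers to between 347 and 645 CPM, beside 284 to 331 CPM. RPE markers summed to between 1490 and 1961 CPM in AL + NaIO3 and to between 2389 and 2586 CPM in AL + PBS. The stromal sum without the third library was 211 and 278 CPM in AL + NaIO3, beside 245 to 302 CPM in AL + PBS. In IF + NaIO3 it was lower than in every AL + NaIO3 library, at 199 to 204 CPM. The part of these shifts in the Igf1, Insr, Igfbp2 and Igfbp7 values was not tested.

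Pairs of the 10 genes were described by Pearson's r of log2 CPM over the 12 libraries, with 11 libraries without the third AL + NaIO3 library. These libraries share groups, depth and tissue makeup, so r is a description. Igfbp5 and Igfbp7 had r = 0.91, which came to 0.44 over 11 libraries. Igfbp4 had r = 0.84 with each of Igfbp5 and Igfbp7, and 0.56 and 0.55 over 11 libraries. Igf1r and Insr had r = 0.84, and 0.83 over 11 libraries. Their low values lay in the second and the third IF + PBS libraries, and r without those libraries was not computed. In FPKM the Insr value of the second IF + PBS library was within the range of the others. The ligands ran against each other, with r = -0.79 for Igf1 and Igf2 over 12 libraries and -0.56 over 11. Igf1 and Insr had r = -0.69 and -0.76.

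**Figure D5:**
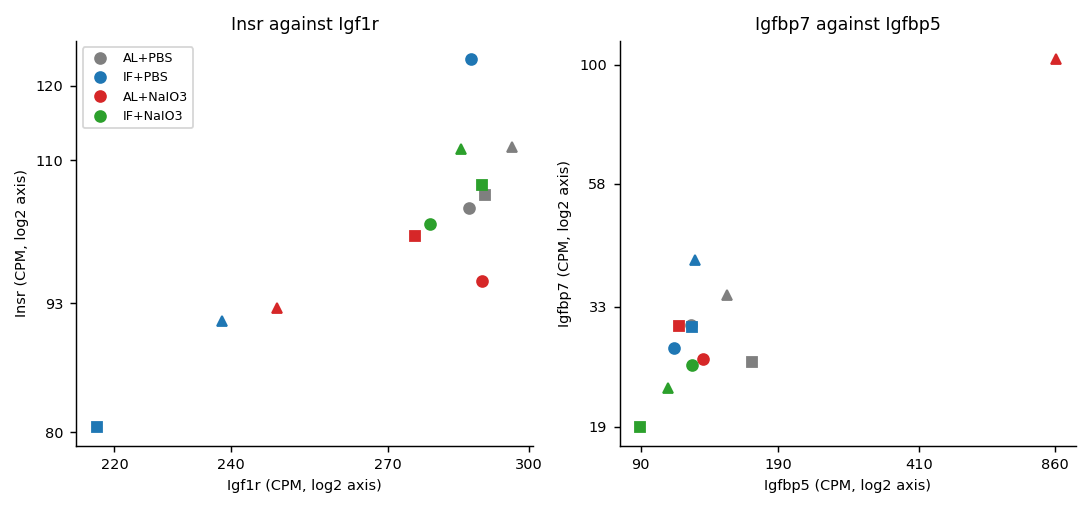
Insr against Igf1r (left) and Igfbp7 against Igfbp5 (right) in the 12 libraries, both in CPM on log2 axes, coloured by group with the replicate given by shape. The receptors spread along a line that ends in the second IF + PBS library at 217 and 80.5 CPM. In FPKM the Insr value of that library was within the range of the others. The binding proteins form 1 cluster with a single distant point, the third AL + NaIO3 library at 862 and 103 CPM.

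The genes most like each of the 10 by r of log2 CPM over the 12 libraries were listed, with r over 11 libraries in brackets. For Igf1r they were Lifr with 0.98 (0.98) and Prkd1 with 0.98 (0.98), and for Insr they were Btaf1 with 0.97 (0.97) and Mtr with 0.95 (0.95). For Igfbp5 Sfrp1 had 0.99 (0.89), and for Igfbp7 they were Ctdsp2 with 0.98 (0.90) and Pcolce with 0.97 (0.84). Pcolce is an enhancer of collagen processing and Sfrp1 a secreted antagonist of Wnt signalling. For Igfbp4 they were Rnf19b with 0.95 (0.89) and Atp9a with 0.93 (0.87). The leading genes for Igf1 were Cracr2b with 0.95 (0.90) and Tbc1d10a with 0.95 (0.90), and those for Irs2 were Mapk6 with 0.90 (0.89) and Glce with 0.90 (0.88). Igf2 gave Tubb5 with 0.90 (0.81) and Sec14l2 with 0.90 (0.80), Igfbp2 gave Cmklr1 with 0.93 (0.83) and Orai3 with 0.92 (0.86), and Igfbp3 gave Slc15a4 with 0.89 (0.84) and Adamts9 with 0.87 (0.83). These genes were chosen by r over the 12 libraries, which include the one then left out.

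The remainder of the pathway was followed with 4 lists, and edgeR called none of their genes in any of the 6 comparisons with all libraries. Of 22 other ligands, receptors, binding proteins and their processing enzymes, 21 were tested in IF + PBS against AL + PBS, where 1 was higher and 0 were lower at an unadjusted p under 0.05. Of 53 intracellular components 52 were tested, with 3 higher and 6 lower, and of 28 FoxO factors and targets 26 were tested, with 1 higher and 5 lower. Of 10 growth hormone axis genes 7 were tested, with none at an unadjusted p under 0.05 in either direction. Over all genes 8.22% were higher and 8.85% lower at that p. The medians of the 4 lists in the same order were -0.06, -0.01, -0.06 and 0.05 on the log2 scale, against 0.01 for all genes.

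Among the genes of lowest p in their lists in this comparison were Bnip3, Ins2 and Prlr. Bnip3, a mitophagy receptor and FoxO target, was at 174, 199 and 172 CPM in AL + PBS and at 126, 146 and 126 CPM in IF + PBS, without overlap and with a log2 difference of -0.45 (SE 0.10, edgeR adjusted p = 0.175). Ins2, an insulin gene of the mouse, was scarce at 1.35, 1.16 and 1.64 CPM in AL + PBS and 1.95, 2.18 and 2.54 CPM in IF + PBS (log2 difference 0.69, SE 0.31, edgeR adjusted p = 0.288). Prlr, the prolactin receptor, differed by 0.69 (SE 0.33, edgeR adjusted p = 0.319) and overlaps Gm21973 in the table.

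Without the first IF + PBS library, 2 of 52 intracellular genes tested were called in this comparison, beside 3.03% of all genes. The share in the list was thus near that over all genes. Rictor, a core subunit of mTORC2, was lower in IF + PBS by a log2 difference of -0.75 (SE 0.11, edgeR adjusted p = 0.00968), beside -0.45 (SE 0.19, edgeR adjusted p = 0.278) with all libraries. Trib3, a pseudokinase that binds AKT, was higher by 0.74 (SE 0.17, edgeR adjusted p = 0.0251), beside 0.57 (SE 0.20, edgeR adjusted p = 0.224) with all libraries. In IF + NaIO3 against IF + PBS, which shares that group, Rictor was higher after NaIO3 by 0.70 (SE 0.13, edgeR adjusted p = 0.0323), beside 0.40 (SE 0.20, edgeR adjusted p = 0.364) with all libraries. It was 1 of 52 intracellular genes called there without that library, beside 1.27% of all genes. Bnip3 then had an adjusted p of 0.0264 in edgeR for IF + PBS against AL + PBS, at a log2 difference of -0.42 (SE 0.10) that stayed under 1.5-fold.

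In IF + NaIO3 against AL + NaIO3 the intracellular list held the lowest p, that of Socs3, an inducible inhibitor of cytokine and insulin receptor signalling. Socs3 was at 16.7, 20.04 and 53.2 CPM in AL + NaIO3 and at 6.07, 3.99 and 5.58 CPM in IF + NaIO3, and it was between 3.87 and 5.76 CPM in the 6 PBS libraries. AL + NaIO3 was thus above the other 9 libraries without overlap, as were the macrophage and microglia, Müller glia and endothelial markers, and the part of these cells in the Socs3 values was not tested. Its log2 difference of IF against AL was -2.53 (SE 0.45, edgeR adjusted p = 0.145), which did not pass the test. Without the third AL + NaIO3 library the spread was smaller and Socs3 was called, with -1.83 (SE 0.23, edgeR adjusted p = 0.0133) for IF + NaIO3 against AL + NaIO3 and 1.91 (SE 0.21, edgeR adjusted p = 0.00817) for AL + NaIO3 against AL + PBS, where 0.476% and 0.572% of all genes were called. The interaction was then -1.80 (SE 0.33, edgeR adjusted p = 0.0486) and the averaged diet difference -0.92 (SE 0.16, edgeR adjusted p = 0.0252).

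The other lists were led by Htra1, Pik3ip1 and Stat5a in IF + NaIO3 against AL + NaIO3. Htra1, a secreted protease that cleaves IGF-binding proteins, was at 83.3, 76.3 and 123 CPM in AL + NaIO3 and at 61.5, 50.2 and 52.4 CPM in IF + NaIO3, without overlap. Its log2 difference was -0.79 (SE 0.19, edgeR adjusted p = 0.233) and -0.55 (SE 0.13, edgeR adjusted p = 0.154) without the third AL + NaIO3 library. Pik3ip1, an inhibitor of PI3 kinase, differed by -0.52 (SE 0.16, edgeR adjusted p = 0.302), and by -0.40 (SE 0.14, edgeR adjusted p = 0.389) without that library. Stat5a, a transcription factor of growth hormone signalling, differed by -0.88 (SE 0.34, edgeR adjusted p = 0.379), and by -0.46 (SE 0.24, edgeR adjusted p = 0.643) without it. Htra1 overlaps Fgfr2 and Stat5a overlaps Stat3 in the table. At an unadjusted p under 0.05 the 4 lists held 2 higher and 9 lower genes of 107 tested, with 3.46% of all genes higher and 8.22% lower.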

How the data were processed

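RNA was poly-A selected from eye cups of 12 mice and sequenced as 150-bp single-end reads according to the methods, while the labels name a paired-end run and a stranded kit. The raw counts per gene are used as deposited by the authors, whose processing notes name HISAT2, StringTie, DESeq2, edgeR and the GRCm39 build. The coordinates in the table fit GRCm38.p6 instead, where 21203 of 21205 matched genes overlapped, beside 3560 of 21689 (16.4%) in GRCm39. The FPKM values were deposited by the authors beside the counts, and the methods name only length and depth scaling.

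From the counts, CPM were computed with TMM factors (0.935 to 1.12). Genes passing filterByExpr were tested by edgeR 4.0.16 quasi-likelihood fits in R 4.3.3 with Benjamini-Hochberg adjustment over all genes, in 6 libraries for a pair of groups and in 12 for the averaged diet effect and the interaction. Calls required a change of 1.5-fold or more together with an adjusted p under 0.05, or the adjusted p alone for the interaction. DESeq2 1.42.0, limma 3.58.1 on log2(FPKM + 1), other scalings and filters, a replicate block and leaving out each library were the alternatives. Scripts were tested on simulated data. The 10 genes and the pathway and marker lists were chosen with earlier results of these data known. All 10 genes were named, and from each pathway list the genes called or, with none called, the gene of lowest p in each diet comparison. Some results are not reported here. The labels give 3 replicates a group, so p-values measure the spread between these samples. Replicates of a group differed by more than sampling noise (chi-square per gene 12.8 to 229).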

Additional observations from a re-analysis of the deposited data

Results flagged for a closer look

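With 3 libraries a group, single libraries were compared with the others in the 6 mice of each diet and of each injection, which gave 40 groups over the 10 genes. In 8 of them a library lay farther from its nearest neighbour than Dixon's 95% critical value allows. Chance marks about 1 in 20 groups of like samples, but each group here mixed both injections or both diets. In every case the library was the third of AL + NaIO3. That library was the highest for 27% of all genes, and the share of flagged groups over all genes was not computed. In the 6 AL mice it was the highest for Igf1 at 69.4 CPM, with the next at 51.8 CPM, for Igfbp4 at 139 CPM, with the next at 80.0 CPM, for Igfbp5 at 862 CPM, with the next at 165 CPM, and for Igfbp7 at 103 CPM, with the next at 34.7 CPM. In the 6 NaIO3 mice it was the highest for Igfbp4 at 139 CPM (next 79.2 CPM), for Igfbp5 at 862 CPM (next 126 CPM) and for Igfbp7 at 103 CPM (next 30.2 CPM), and the lowest for Igf1r at 248 CPM (next 275 CPM). These groups share mice, so the 8 cases are not independent of each other.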

How the results depend on the processing

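None of the 10 genes was called in any of the 6 comparisons under any alternative run, including the replicate block, under which the count was 0 in each comparison and the smallest adjusted p of the 10 genes was 0.295. The replicate numbers did not pair the samples, as deviations of same-numbered libraries correlated between -0.10 and 0.14. Over the whole table the number of genes called varied more. It went from 0 to 192, 6 to 478, 36 to 391, 12 to 411, 0 to 72 and 5 to 217 in DESeq2 for IF + PBS against AL + PBS, IF + NaIO3 against AL + NaIO3, the averaged diet effect, AL + NaIO3 against AL + PBS, IF + NaIO3 against IF + PBS and the interaction. With a library left out it ran from 1 to 472, 0 to 75, 6 to 203, 0 to 90, 0 to 197 and 3 to 366 in the same order. With the replicate block it was 5, 28, 28, 28, 0 and 8. The number of the 10 genes at an unadjusted p under 0.05 ran from 0 to 6 over all settings, the highest in the interaction without the first IF + PBS library, and their smallest adjusted p was 0.0212, for Igf1r without that library. A fit of all 12 libraries gave 190 genes for IF + NaIO3 against AL + NaIO3 and 177 for AL + NaIO3 against AL + PBS.

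Of 400 gene values under alternatives that kept every library, 391 kept their direction, and of 480 with a library left out 450 did. The direction turned in limma on log2(FPKM + 1) for Igf2 (-0.041), Igf1r (-0.077) and Insr (-0.00742) in IF + NaIO3 against AL + NaIO3, for Insr averaged over injections (-0.017) and in IF + NaIO3 against IF + PBS (-0.043), and for Igf2 in the interaction (-0.10). It turned for Insr averaged over injections with upper quartile scaling (-0.00952), for Igf2 in IF + PBS against AL + PBS with at least 10 counts in each library (-0.000457), and for Irs2 in AL + NaIO3 against AL + PBS in the fit of 12 libraries (-0.000347). As reported these values lay between 0.0046 and 0.14, and the cause was not tested.

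With a library left out, log2 differences that turned ranged as follows. In IF + PBS against AL + PBS, Igf2 ran from -0.031 to 0.075, Insr from -0.32 to 0.00781 and Igfbp7 from -0.067 to 0.23. In IF + NaIO3 against AL + NaIO3, Igf1r ran from -0.000213 to 0.12, Irs2 from -0.11 to 0.079 and Igfbp3 from -0.26 to 0.74. Averaged over injections, Igf1 ran from -0.079 to 0.040, Insr from -0.085 to 0.077 and Igfbp4 from -0.26 to 0.063. In AL + NaIO3 against AL + PBS, Irs2 ran from -0.080 to 0.10, Igfbp3 from -0.25 to 0.71, Igfbp4 from -0.067 to 0.59, Igfbp5 from -0.27 to 1.80 and Igfbp7 from -0.11 to 1.13. In IF + NaIO3 against IF + PBS, Insr ran from -0.00838 to 0.32 and Igfbp3 from -0.15 to 0.46. In the interaction, Igfbp3 ran from -0.58 to 0.43 and Igfbp5 from -1.94 to 0.12. With 3 mice a group an exact permutation test of a single gene cannot go below p = 0.1, so none was used.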

Other observations

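The deposited FPKM and the counts did not scale alike for every gene. With counts scaled by the library total alone, without the composition factors in the CPM given above, the FPKM per scaled count of Insr was 0.112 in the second IF + PBS library and between 0.0891 and 0.0951 in the other 11. The low count of that library (80.5 CPM) thus stood at 8.95 FPKM, within the range of the other libraries. For Igf2 this ratio ran from 0.179 to 0.203.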
